A study of Mus musculus with 40 samples.

Results

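The effect of a high-fat diet on the liver of pioglitazone-treated wild-type (WT) mice is described here, from 5 mice given a high-fat diet with pioglitazone (HFD-Pio, mice 836 to 840) and 5 given a control diet with pioglitazone (Pio, mice 841 to 845). These 10 of the 40 libraries of the study were chosen by their diet, drug and genotype labels. Pioglitazone is a thiazolidinedione drug that activates the nuclear receptor PPARγ. Both groups were male C57BL6/J mice aged 5 months that ate 0.01% pioglitazone by weight for 3 months from an age of 2 months, so the groups shared the drug and differed in the diet. The high-fat diet held 60% of calories as fat, the control diet was a separate low-fat product, and drug intake is not given in the sources used here. The study also held WT mice on the control diet (831 to 835) and on the high-fat diet without the drug (HFD, 826 to 830), and the same 4 groups of mice whose hepatocytes lack PPARγ (KO). In the KO mice, floxed Pparg is deleted by Cre under the albumin promoter, which is active in hepatocytes, so other liver cells keep the gene. The WT mice were purchased C57BL6/J animals and were not described as littermates of the KO mice. Each library is the poly-A RNA of 1 liver, and p-values therefore measure the spread between mice.

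The liver makes fatty acids from carbohydrate when dietary fat is scarce, through enzymes such as ATP citrate lyase, acetyl-CoA carboxylase and fatty acid synthase that are driven by the transcription factors SREBP-1c and ChREBP. Fat in the diet supplies fatty acids directly, which the liver esterifies, exports or oxidises in mitochondria and peroxisomes under the control of PPARα, while cholesterol synthesis follows the sterol supply through SREBP-2. PPARγ is scarce in normal liver, rises in steatosis, and drives lipid-droplet and fatty acid uptake genes such as Cidec, Plin4 and Cd36 there.

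The 10 libraries held 15789401 to 49860981 counts, and the sum of 10 hepatocyte markers was 104000 to 107000 CPM (counts scaled to library size) in HFD-Pio and 71400 to 125000 CPM in Pio mice. The Pio libraries were unequal. Messenger RNAs encoded by the mitochondrial genome held 5.72 to 7.27% of the counts in HFD-Pio mice, and 4.67% in Pio mouse 841, 10.7% in 842, 10.9% in 843, 9.07% in 844 and 21% in 845 (exact permutation test, two-sided p = 0.0635). On the first principal component of log2 CPM, which held 44.3% of the variance of the 10 mice, Pio mouse 841 scored -16.2, inside the range of the HFD-Pio mice (-26.7 to -12.4), and the other Pio mice scored 14.4 to 57.5, the highest being 845. The second component held 14.4% of the variance. There mouse 841 scored 30.8, the highest of the 10, outside the range of the HFD-Pio mice (-29 to 5.3). The labels give no batch for these libraries. Pparg itself was measured at 7.27 to 12.2 CPM in HFD-Pio and 10.5 to 13.9 CPM in Pio mice, against 5.45 to 9.89 and 3.09 to 6.85 CPM in the corresponding KO mice, whose counts cover the whole gene and come from a separate table.

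**Figure D1:**
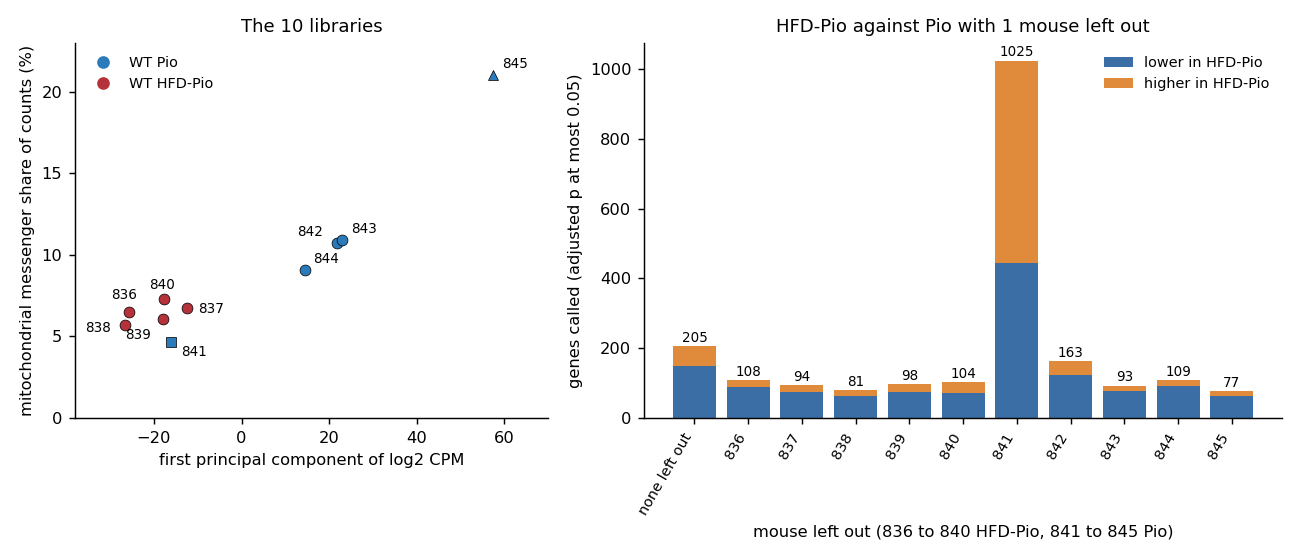
Left, score on the first principal component of log2 CPM (horizontal axis) against the share of counts in mitochondrially encoded messenger RNAs (percent, vertical axis) for the 10 mice, with 1 point per mouse. Right, number of genes called in HFD-Pio against Pio with none and with each of these 10 mice left out, split into lower and higher in HFD-Pio. Pio mouse 841 lies among the HFD-Pio mice on the horizontal axis and below them on the vertical axis. Pio mouse 845 lies at 21%, and the count of called genes runs from 77 without mouse 845 to 1025 without mouse 841.

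Of 12447 genes tested, 205 differed between HFD-Pio and Pio mice (1.65%), 55 higher (0.442%) and 150 lower (1.21%) in HFD-Pio, by the quasi-likelihood F test of edgeR at a Benjamini-Hochberg adjusted p of at most 0.05. Such genes are called here, a log2 fold change is given with its standard error, and CPM are scaled by TMM factors. The median log2 fold change over all genes tested was -0.01. The genes that fell most were led by Chrna4 and Pnpla3. Among the gene lists, those of fatty acid and of cholesterol synthesis held the most called genes, with 9 lower in each. The genes that rose included the fatty acid oxidation genes Slc22a5, Cpt2 and Crot and the secreted lipase inhibitor Angptl4. Both groups lay apart without overlap in 814 genes (6.54%), 354 higher (2.84%) and 460 lower (3.70%). For such a gene the exact permutation test of 5 against 5 mice gives 0.00794, which is the smallest p that the design allows.

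The number of called genes rested on single mice. It was 1025 without Pio mouse 841 (580 higher and 445 lower), of which 202 were among the 205, and 77 without Pio mouse 845 (14 higher and 63 lower), of which 77 were among the 205. Without HFD-Pio mice 836, 837, 838, 839 or 840 it was 108, 94, 81, 98 or 104, and without Pio mice 843 or 844 it was 93 or 109. Without control mouse 832 or HFD mouse 829 it was 415 or 309. Both of these mice enter through the filter, the scaling and the shared estimate of the spread. On the same genes DESeq2 called 560 (203 higher and 357 lower) and limma with quality weights 2627 (1360 higher and 1267 lower), each including the 205. The calls below are those of edgeR on the 20 WT mice, given with the mice whose omission ended them. A gene given below as not called is one that edgeR did not call. Of the 21 such genes for HFD-Pio against Pio, limma called 11 and DESeq2 5, in the same direction. In the fit of all 40 mice 26 of the 57 called genes named below were not called: Aatk, Acadm, Aldoc, Aox3, Dlat, Ech1, Elovl6, Enho, Fasn, Fdps, Gdf15, Gpam, Igfals, Ighm, Ldha, Lss, Mvd, Onecut1, Orm1, Osgin1, Pcp4l1, Plin3, Pmvk, Ppargc1a, Retsat and Sc5d. Without a filter on low counts 18 were not called, namely Hao2, Myc, Smpd3, Ugt1a5 and mt-Nd5 besides Aatk, Acadm, Aldoc, Enho, Fdps, Gdf15, Gpam, Ighm, Ldha, Mvd, Onecut1, Plin3 and Pmvk. Without Pio mice 841 and 845 together 23 of the 57 were not called. They included Cpt2, Elovl6, Fasn, Fdft1, Fdps, Hao2, Mvd, Pltp, Pmvk and Sc5d. The others were Aatk, Acadm, Aldoc, Dlat, Enho, Gpam, Igfals, Ldha, Orm1, Osgin1, Pcp4l1, Plin3 and Retsat.

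Many genes of fatty acid synthesis and desaturation fell in HFD-Pio liver. Of 21 tested, 9 were called lower and 0 higher, beside 1.21% and 0.442% of all genes, and the median log2 fold change was -0.95 beside -0.01. The called genes were Acly, Acss2, Acaca, Acacb, Fasn, Elovl6, Scd1, Scd2 and Pnpla3, and in 13 of the 21 genes every HFD-Pio mouse lay below every Pio mouse, beside 3.70% of all genes. With 1 mouse left out, 8 to 12 of the 21 were called lower.

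Acly, ATP citrate lyase (chromosome 11, 100476353 to 100528000, GRCm38), makes the cytosolic acetyl-CoA from which fatty acids and sterols are built. It was measured at 376, 399, 243, 340 and 218 CPM in HFD-Pio mice 836 to 840 and at 1160, 701, 1460, 1440 and 1420 CPM in Pio mice 841 to 845. Every HFD-Pio mouse lay below every Pio mouse, and Pio mouse 842 was the lowest of its group. The log2 fold change was -1.97 (SE 0.32, edgeR adjusted p = 0.00306), and the call was kept in all 20 fits with 1 mouse left out. Acaca, the acetyl-CoA carboxylase that makes malonyl-CoA, averaged 66.6 ± 18.8 CPM in HFD-Pio and 191 ± 59.3 CPM in Pio mice (SD, n = 5 each). Its log2 fold change was -1.51 (SE 0.27, edgeR adjusted p = 0.00445) and the call was also kept in all 20 fits.

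Fasn, fatty acid synthase, was measured at 2620, 2040, 1030, 1500 and 635 CPM in the HFD-Pio mice and 4980, 3590, 6030, 4800 and 5940 CPM in the Pio mice, in the same order. HFD-Pio mouse 840 held the lowest value, and no HFD-Pio mouse reached the lowest Pio mouse. Fasn had a log2 fold change of -1.69 (SE 0.35, edgeR adjusted p = 0.015) and the call was lost without HFD-Pio mouse 838 (edgeR adjusted p = 0.0615) and with all 40 mice (edgeR adjusted p = 0.0612). The call for Fasn was lost as well without Pio mice 841 and 845 together (edgeR adjusted p = 0.0586). Scd1, the main stearoyl-CoA desaturase of liver, was measured at 17600, 23900, 4170, 12600 and 7510 CPM in HFD-Pio and 26500, 50200, 62100, 53300 and 121000 CPM in Pio mice. Pio mouse 841 lay just above the highest HFD-Pio mouse and Pio mouse 845 far above the rest. Its log2 fold change was -2.25 (SE 0.46, edgeR adjusted p = 0.014), and the call was lost without Pio mouse 845 (-1.87, edgeR adjusted p = 0.0604). Scd2, a desaturase of low abundance in adult liver, averaged 4.94 ± 1.54 and 38.2 ± 13.5 CPM (SD, n = 5 each), with a log2 fold change of -2.95 (SE 0.49, edgeR adjusted p = 0.00339) that was called in all 20 fits.

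Pnpla3 (chromosome 15, 84167837 to 84187236), which encodes the lipid-droplet protein adiponutrin and is a known target of SREBP-1c and ChREBP, changed most in this list. Its values were 11.4, 5.61, 3.26, 11.7 and 1.7 CPM in HFD-Pio and 139, 48.3, 180, 146 and 124 CPM in Pio mice. The lowest Pio mouse, 842, still exceeded the highest HFD-Pio mouse. The log2 fold change was -4.24 (SE 0.62, edgeR adjusted p = 0.0017), which is 18.9-fold lower in HFD-Pio, and it was called in all 20 fits. Pnpla3 overlaps the gene Gm20369 on the other strand, and whether counting used strand is not given in the sources used here. The remaining called members were Acacb, the mitochondrial carboxylase (-1.94, SE 0.36), Acss2, acetyl-CoA synthetase (-1.78, SE 0.34), and Elovl6, the elongase of C16 fatty acids (-1.65, SE 0.33), each called in all 20 fits with 1 mouse left out. Acss2 overlaps Ggt7 and Gss on the other strand, and Elovl6 was not called without Pio mice 841 and 845 together (edgeR adjusted p = 0.0586) or with all 40 mice (edgeR adjusted p = 0.0588).

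Members of the list that did not pass the test included regulators. Srebf1, which encodes SREBP-1c, averaged 552 ± 141 CPM in HFD-Pio and 531 ± 127 CPM in Pio mice (SD, n = 5 each; log2 fold change 0.06, SE 0.22, edgeR adjusted p = 0.92). Mlxipl, which encodes ChREBP, averaged 695 and 1010 CPM (-0.54, SE 0.31, edgeR adjusted p = 0.359). Thrsp, a lipogenic protein induced by carbohydrate, was measured at 140 to 1010 CPM in HFD-Pio and 1100 to 1980 CPM in Pio mice. Its groups did not overlap, but HFD-Pio mice 838 and 840 were far below mouse 836, and the log2 fold change of -1.58 (SE 0.49) did not pass (edgeR adjusted p = 0.0981). Thrsp was called in 1 of the 20 fits with 1 mouse left out (edgeR adjusted p = 0.0322). The desaturases Fads1 and Fads2 had log2 fold changes of -0.52 (SE 0.14, edgeR adjusted p = 0.0581) and -0.72 (SE 0.2, edgeR adjusted p = 0.0659), again without overlap. Each was called in 2 of the 20 fits with 1 mouse left out (edgeR adjusted p down to 0.0384 and 0.0321).

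G6pdx and Pgd, which encode the NADPH-producing dehydrogenases of the pentose phosphate pathway, were called lower. Me1, the cytosolic malic enzyme, which also makes NADPH, averaged 206 and 400 CPM and was not called (-0.95, SE 0.4, edgeR adjusted p = 0.204). G6pdx was measured at 7.7, 10.2, 7.02, 9.09 and 7.14 CPM in HFD-Pio and 29.6, 14.2, 113, 63.7 and 67.5 CPM in Pio mice. The HFD-Pio mice were nearly equal, while the Pio mice varied widely and 842 was their lowest. G6pdx had a log2 fold change of -2.8 (SE 0.45, edgeR adjusted p = 0.00298), called in all 20 fits, although G6pdx overlaps Ikbkg on the other strand. Pgd averaged 74.6 ± 21.1 and 141 ± 23.6 CPM (SD, n = 5 each), a log2 fold change of -0.91 (SE 0.18, edgeR adjusted p = 0.0121) that was lost without HFD-Pio mouse 838 (edgeR adjusted p = 0.0536).

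Fabp5, a fatty acid binding protein found mainly in epidermis, macrophages and fat, was among the genes that fell most. It was measured at 8.07, 7.96, 3.63, 8.84 and 4.94 CPM in HFD-Pio and 124, 49.2, 131, 118 and 52.6 CPM in Pio mice. The groups lay far apart, with a log2 fold change of -3.82 (SE 0.6, edgeR adjusted p = 0.00281) that was called in all 20 fits. It was the 1 called member of 13 tested genes of fatty acid uptake and binding, beside 1.65% of all genes called. The median log2 fold change of these 13 genes was 0.02. Among 26 tested lipid-droplet and triglyceride genes 2 were called lower and 0 higher, beside 1.21% and 0.442% of all genes, and the median was 0.22. They were Gpam, which starts glycerolipid synthesis (-1.24, SE 0.3, edgeR adjusted p = 0.036), and the droplet coat gene Plin3 (-0.53, SE 0.13, edgeR adjusted p = 0.0391). The call for Gpam was lost without any 1 of mice 835, 836, 838, 839, 840, 843, 844 and 845 (edgeR adjusted p up to 0.112), and that for Plin3 without any 1 of mice 826, 834 to 840 and 842 to 845 (edgeR adjusted p up to 0.112).

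**Figure D2:**
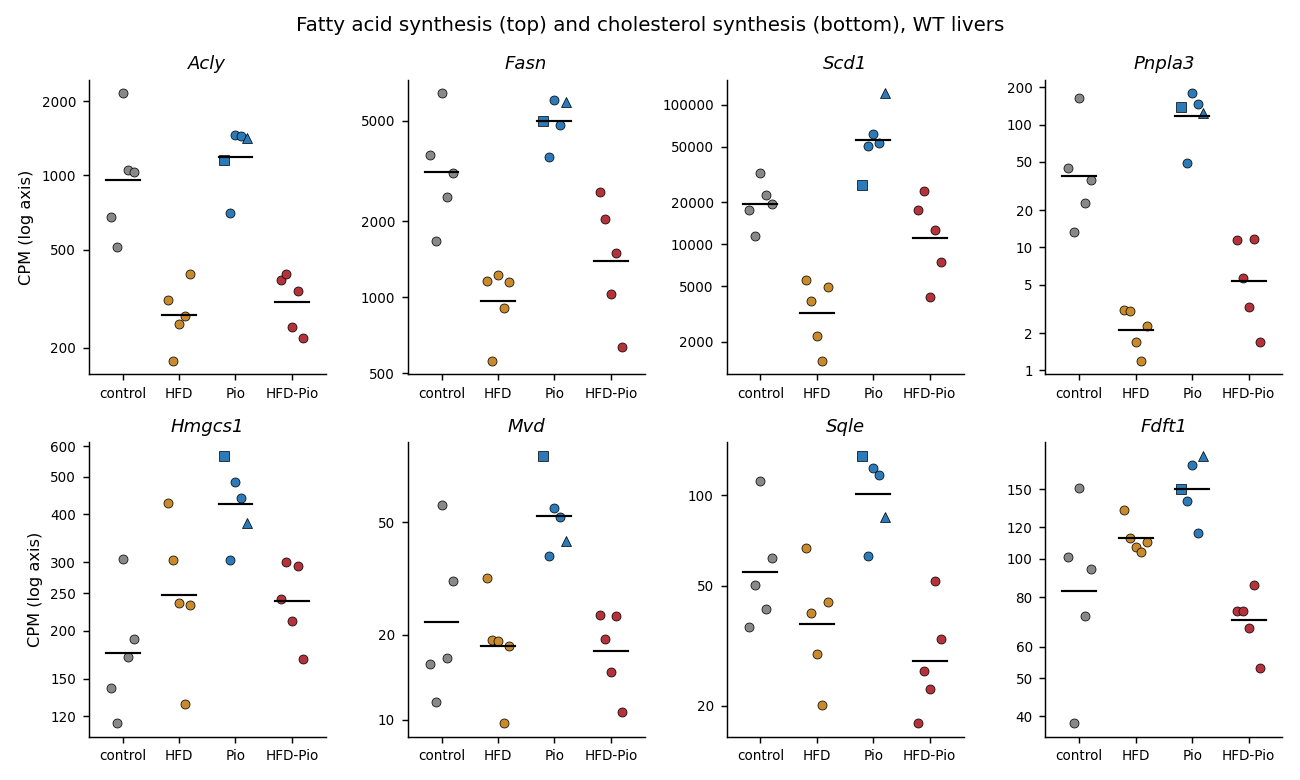
CPM (log axis) of 4 genes of fatty acid synthesis (Acly, Fasn, Scd1, Pnpla3) and 4 of cholesterol synthesis (Hmgcs1, Mvd, Sqle, Fdft1) in each mouse of the 4 WT groups. Points are mice, squares mark Pio mouse 841, triangles Pio mouse 845, and bars are geometric means. In the fatty acid genes HFD lay below control as HFD-Pio lay below Pio, whereas in the cholesterol genes the Pio group was the highest of the 4 by mean.

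Enzymes of cholesterol synthesis fell too. Of 27 tested genes of the list of cholesterol synthesis and SREBP2 targets, 9 were called lower and 0 higher, beside 1.21% and 0.442% of all genes, and 26 had negative log2 fold changes, with a median of -0.83 beside -0.01 over all genes. The called genes were enzymes and included Pmvk, Mvd and Fdps of the mevalonate branch and Fdft1, Sqle, Lss, Sc5d and Dhcr7 of the sterol branch. The 20 synthesis enzymes had a median of -0.93, and the 7 tested genes of sterol uptake and regulation had a median of -0.32 with 0 called. The groups did not overlap in 12 of the 27, all lower in HFD-Pio, beside 3.70% of all genes. The count of called members was 5 without HFD-Pio mouse 836 or Pio mouse 845, 4 without HFD-Pio mice 837 or 840 or Pio mouse 843, and 3 without HFD-Pio mouse 838, and it was at most 11 in the other fits with 1 mouse left out. It was 5 without a filter on low counts, 4 with all 40 mice and 4 without Pio mice 841 and 845 together.

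Sqle, squalene epoxidase (chromosome 15, 59315077 to 59331192), was measured at 17.5, 26.2, 22.7, 52.1 and 33.3 CPM in HFD-Pio and 135, 63, 123, 117 and 84.8 CPM in Pio mice. Every Pio mouse lay above every HFD-Pio mouse, HFD-Pio mouse 839 and Pio mouse 842 came closest to each other, and mouse 841 was the highest although it scored with the HFD-Pio mice on the first principal component. The log2 fold change was -1.78 (SE 0.35, edgeR adjusted p = 0.00955), called in all 20 fits.

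Fdft1, squalene synthase, the first step committed to sterols (chromosome 14, 63145150 to 63179578), was measured at 73.9, 73.8, 67, 85.8 and 53.1 CPM in HFD-Pio and 150, 140, 173, 116 and 182 CPM in Pio mice. All Pio mice lay above all HFD-Pio mice, and the spread within each group was small. Fdft1 had a log2 fold change of -1.1 (SE 0.24, edgeR adjusted p = 0.0187), and the call was lost without mouse 837, 838, 840, 843 or 845 (edgeR adjusted p up to 0.0624). Fdft1 overlaps Ctsb on the other strand. Dhcr7, the last enzyme of the pathway, averaged 116 and 302 CPM (-1.38, SE 0.21, edgeR adjusted p = 0.00253) and Lss, lanosterol synthase, 54.2 and 134 CPM (-1.31, SE 0.25, edgeR adjusted p = 0.00937), both called in all 20 fits with 1 mouse left out, although Lss was not called with all 40 mice (edgeR adjusted p = 0.0525). Mvd, mevalonate diphosphate decarboxylase, averaged 18.3 ± 5.57 and 55 ± 18.7 CPM (SD, n = 5 each; -1.59, SE 0.37, edgeR adjusted p = 0.0326), and its call was lost without any 1 of mice 836 to 840 and 843 to 845 (edgeR adjusted p up to 0.0997). Pmvk, phosphomevalonate kinase (-1.26, SE 0.3), lost its call without any 1 of mice 836, 837, 838, 840 and 843 to 845, Fdps, farnesyl diphosphate synthase (-1.49, SE 0.32), without mouse 836, 837, 838, 840 or 843, and Sc5d, sterol C5-desaturase (-0.83, SE 0.2), without any 1 of mice 835 to 840 and 842 to 845.

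Hmgcs1, an early enzyme of the mevalonate branch, averaged 243 ± 55.1 and 435 ± 99.6 CPM (SD, n = 5 each), without overlap but not called (-0.84, SE 0.28, edgeR adjusted p = 0.12). Its promoter is shown because it was the 1 of 19 members of the list with a RefSeq promoter (GRCm38.p6, 250 bases before to 50 after the start) that held the core sterol regulatory element, with the letters TCACNCCAC on either strand in capitals.
Hmgcs1, chr13:119690208-119690228, plus strand, 137 bases before the start: accgtcTCACCCCACttccca
Of the 17 fatty acid synthesis genes with a promoter in the table, the element was found in Mlxipl alone.
Mlxipl, chr5:135106749-135106769, plus strand, 136 bases before the start: gtggttTCACACCACgctcac
These letters occurred in 388 of all 27025 promoters (1.44%), and in 1 of the 19 (5.26%) and 1 of the 17 (5.88%) of these lists. Neither gene was called, and the match says only that the letters are in that window.

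Without the drug, the high-fat diet gave 349 calls in WT mice (2.80% of 12447 genes), 166 higher (1.33%) and 183 lower (1.47%), in 10 other mice. The count was 170 with all 40 mice, 229 without a filter on low counts, 617 with DESeq2, 158 or 220 without control mouse 833 or 832, and 218, 159 or 201 without HFD mouse 826, 828 or 830. Of the genes called higher under the drug, 16 were also called higher without it (29.1% of 55 and 9.64% of 166). Of those called lower, 46 were also called lower without it (30.7% of 150 and 25.1% of 183), and 0 genes were called in opposite directions. The fatty acid synthesis list had 12 of 21 called lower without the drug and a median of -1.41. Acly had a log2 fold change of -1.95 (SE 0.32, edgeR adjusted p = 0.00191) and Pnpla3 one of -4.61 (SE 0.66, edgeR adjusted p = 0.000519), close to the values under the drug. The cholesterol list had 0 of 27 called without the drug and a median of -0.03.

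The difference between the diet effects with and without the drug was then tested across all genes, and 1 gene, Cyp7a1, was called (0.00803% of 12447), with 1942 at an unadjusted p under 0.05. DESeq2 called 135 and limma 840, and the edgeR count was 115 without Pio mouse 841, 10 without control mouse 833, 5 without control mouse 831, 3 without control mouse 835, and 2 without mouse 829, 836 or 845. In the cholesterol list 0 of 27 were called, 13 had an unadjusted p under 0.05, and the median difference was -0.60 beside 0.02 over all genes. Fdft1 had a difference of -1.42 (SE 0.33, edgeR adjusted p = 0.127) and Sqle one of -1.21 (SE 0.48, edgeR adjusted p = 0.246). Sqle averaged 30.4 ± 13.5 CPM in HFD-Pio, 105 ± 29.7 in Pio, 40.4 ± 17.7 in HFD and 60.4 ± 30.1 CPM in control mice (SD, n = 5 each), and the Pio values (63 to 135 CPM) overlapped those of control mice (36.4 to 111 CPM) and of HFD mice (20.1 to 67 CPM). In the fatty acid synthesis list 2 of 21 genes had an unadjusted p under 0.05 for the difference, and the median difference was 0.09.

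**Figure D3:**
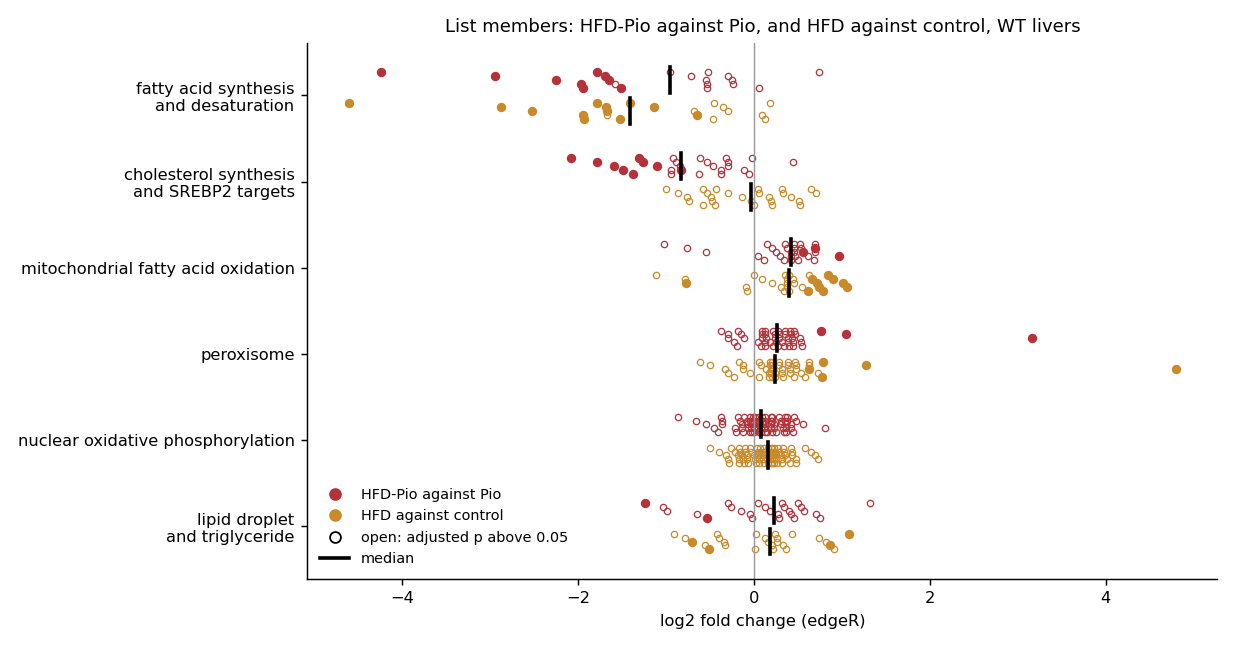
Log2 fold change of each tested member of 6 gene lists for HFD-Pio against Pio and for HFD against control in WT mice. Each point is a gene, filled where the adjusted p was at most 0.05, and bars are medians. The fatty acid synthesis medians are -0.95 and -1.41, and the cholesterol medians -0.83 and -0.03.

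Cyp7a1, the rate-limiting enzyme of bile acid synthesis from cholesterol (chromosome 4, 6265612 to 6275633), was measured at 34.4, 30.6, 20.1, 33.9 and 26.7 CPM in HFD-Pio and 39.1, 80, 54.3, 38.3 and 47 CPM in Pio mice. The groups lay close together but did not overlap, and the log2 fold change of -0.83 (SE 0.28) was not called (edgeR adjusted p = 0.13). Without the drug it was measured at 58.8, 62.5, 21.6, 40.9 and 63.9 CPM in HFD mice 826 to 830 and at 7.49, 7.59, 18.1, 10.2 and 8.99 CPM in control mice 831 to 835. There the HFD mice were the higher, with a log2 fold change of 2.25 (SE 0.29, edgeR adjusted p = 0.00031). The difference between the 2 diet effects was -3.08 (SE 0.4, edgeR adjusted p = 0.00223), and it was called in all 20 fits with 1 mouse left out, at -3.36 to -2.86. The 27 tested genes of bile acid synthesis and transport, of which Cyp7a1 is 1, had a median of 0.11 under the drug.

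The diet effect under the drug was set beside that in KO mice. Of 12457 genes, 0 were called in HFD-Pio against Pio KO mice (0.00%), with 2398 at an unadjusted p under 0.05, and DESeq2 called 67 and limma 143. In the fit of all 40 mice, which also gives the difference from WT mice, edgeR called 642 (55 higher and 587 lower). Without KO Pio mouse 13, whose mitochondrially encoded share was 0.851% against 6.6 to 7.77% in KO HFD-Pio mice, edgeR called 18, and without KO control mouse 5 or KO HFD-Pio mouse 16 it called 1. The cholesterol list had a median of 0.60 in KO mice, and the fatty acid synthesis list -0.74. Of 12942 genes tested for a difference between the KO and WT effects, 2 were called (0.0155%), Fdft1 and Cyp7a1, with 2496 at an unadjusted p under 0.05. This test uses the same 10 WT mice as the main comparison. Its count was 391 with KO Pio mouse 11 left out, 88 when the mouse was KO Pio 12, 11 when it was KO Pio 14, 159 when it was WT Pio 841, and 4 to 9 when it was WT control 832 or 833 or KO control 3 or 5. The count was 1 without any 1 of WT mice 836, 837, 839, 840, 842 and 843 and KO mice 13, 15 and 16. DESeq2 called 108 and limma 975.

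Fdft1 was measured at 145, 102, 125, 132 and 128 CPM in KO HFD-Pio mice 16 to 20 and at 66.9, 75.3, 33.9, 43.7 and 52.5 CPM in KO Pio mice 11 to 15. In KO mice every HFD-Pio mouse was thus the higher, opposite to the order in WT mice, and the log2 fold change was 1.21 (SE 0.29, edgeR adjusted p = 0.213). The KO effect exceeded the WT effect by 2.33 (SE 0.39, edgeR adjusted p = 0.0082), a call kept with each of the 40 mice left out. Cyp7a1 was measured at 233, 216, 264, 162 and 304 CPM in KO HFD-Pio and 60.2, 84, 25.8, 39.9 and 39.4 CPM in KO Pio mice. The KO groups did not overlap either, again with HFD-Pio the higher (2.24, SE 0.49, edgeR adjusted p = 0.155). The difference from the WT effect was 3.08 (SE 0.57, edgeR adjusted p = 0.0296), and its call was lost without any 1 of WT mice 836 to 840, 842 and 843 and KO mice 13, 15, 16 and 20 (edgeR adjusted p up to 0.092).

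**Figure D4:**
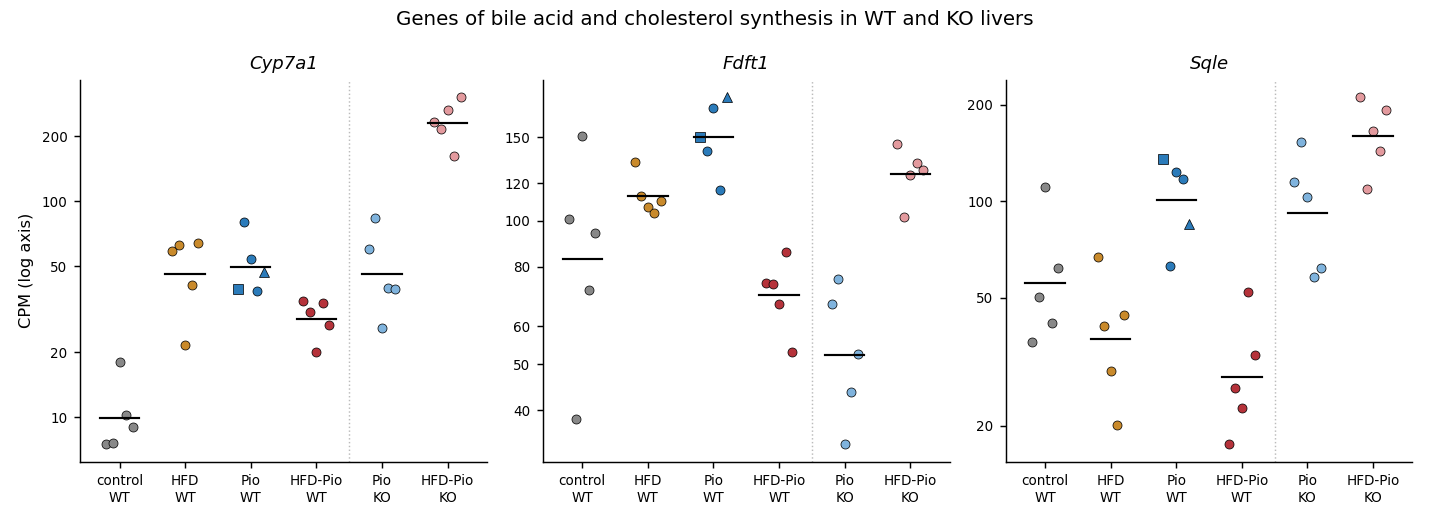
CPM (log axis) of Cyp7a1, Fdft1 and Sqle in each mouse of the 4 WT groups and of the KO Pio and KO HFD-Pio groups. Points are mice, squares mark WT Pio mouse 841, triangles WT Pio mouse 845, and bars are geometric means. HFD-Pio lay below Pio in WT mice and above it in KO mice for Cyp7a1 and Fdft1, and WT and KO counts come from separate tables.

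Fatty acid oxidation showed smaller changes, mostly upward and few of them called. Of 29 tested genes of mitochondrial fatty acid oxidation and ketogenesis, 3 were called higher (Slc22a5, Cpt2 and Acadm) and 0 lower, beside 0.442% and 1.21% of all genes, 26 had positive log2 fold changes, and the median was 0.42 beside -0.01 over all genes. All 17 genes of the beta-oxidation spiral had positive values, from 0.05 to 0.69, and 1 was called. The 8 tested genes of the carnitine shuttle and of fatty acid activation were split, 5 positive and 3 negative, down to -1.02. Groups did not overlap in 7 of the 29 with HFD-Pio higher and in 2 with HFD-Pio lower, beside 2.84% and 3.70% of all genes. Those 2 lower genes were among the 8 of carnitine and activation. Without the drug, 9 of the 29 were called higher and 1 lower, beside 1.33% and 1.47% of all genes, with a median of 0.40. The count of members called higher under the drug was 12 without Pio mouse 841, 8 without control mouse 832 and 5 without HFD mouse 829. The lowest count with 1 mouse left out was 2, as without HFD-Pio mouse 836. Without Pio mice 841 and 845 together neither Acadm nor Cpt2 was called (edgeR adjusted p = 0.0559 for each).

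Slc22a5, the carnitine transporter OCTN2 (chromosome 11, 53864542 to 53891660), was measured at 26.1, 27.6, 23.6, 26.1 and 26.4 CPM in HFD-Pio and 18, 11.9, 11.3, 14.4 and 10.5 CPM in Pio mice. The HFD-Pio values were nearly equal and lay above every Pio mouse. For Slc22a5 this gave a log2 fold change of 0.97 (SE 0.17, edgeR adjusted p = 0.00382), called in all 20 fits. Cpt2, which regenerates acyl-CoA inside mitochondria, was measured at 204, 191, 194, 186 and 201 CPM in HFD-Pio and 133, 128, 116, 122 and 105 CPM in Pio mice. It too separated the groups, with a log2 fold change of 0.69 (SE 0.14, edgeR adjusted p = 0.0134) in all 20 fits called, but not without Pio mice 841 and 845 together (edgeR adjusted p = 0.0559). Acadm, medium-chain acyl-CoA dehydrogenase, averaged 309 ± 21.9 and 209 ± 24.7 CPM (SD, n = 5 each; 0.56, SE 0.12, edgeR adjusted p = 0.0229), and its call was lost without mouse 836, 837, 839, 843, 844 or 845 (edgeR adjusted p up to 0.088).

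Cpt1a, which controls the entry of acyl groups into mitochondria, had a log2 fold change of 0.11 (SE 0.13, edgeR adjusted p = 0.683) under the drug and 0.61 (edgeR adjusted p = 0.0168) without it. The difference of -0.49 was not called. Hadha, the trifunctional protein subunit, averaged 470 ± 27.6 and 453 ± 72.2 CPM (SD, n = 5 each; 0.05, SE 0.14, edgeR adjusted p = 0.879).

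In the peroxisome list 3 of 48 tested genes were called higher (Crot, Ech1 and Hao2) and 0 lower, beside 0.442% and 1.21% of all genes, 40 had positive log2 fold changes, and the median was 0.26. Hao2 passed the filter on low counts through 4 HFD-Pio and 2 HFD mice alone, and leaving Hao2 out, 2 of 47 were called higher. Crot, which makes carnitine esters of medium-chain products for transfer to mitochondria (chromosome 5, 8966033 to 8997324), was measured at 452, 513, 532, 469 and 525 CPM in HFD-Pio and 281, 294, 203, 230 and 197 CPM in Pio mice. The groups were far apart, with a log2 fold change of 1.05 (SE 0.18, edgeR adjusted p = 0.00399) called in all 20 fits, and Crot overlaps predicted genes on the other strand. Ech1, a dienoyl-CoA isomerase, averaged 327 ± 39.7 and 193 ± 40.5 CPM (SD, n = 5 each; 0.76, SE 0.17, edgeR adjusted p = 0.0274), a call lost without any 1 of mice 836 to 839 and 843 to 845 (edgeR adjusted p up to 0.0883). Hao2, a peroxisomal hydroxyacid oxidase, was scarce, at 1.99, 1.56, 1.91, 1.88 and 0.457 CPM in HFD-Pio and 0.0251 to 0.353 CPM in Pio mice, with a log2 fold change of 3.16 (SE 0.78, edgeR adjusted p = 0.0403) that lost its call without mouse 830, 843, 844 or 845. Without mouse 829, 836, 837, 838 or 839 it was below the filter and was not tested, so the call stood in 11 of the 20 fits. The count of called peroxisomal genes was 12 without Pio mouse 841 and 1 without any 1 of mice 836 to 839 and 843 to 845.

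Targets of PPARα in the omega-hydroxylase and thioesterase list were not called, with 0 of 20 in either direction beside 1.65% of all genes, a median of 0.23, and 2 genes whose groups did not overlap, both higher in HFD-Pio, beside 2.84% of all genes. At an unadjusted p under 0.05 the drug-treated groups differed in 2278 of all genes. Acot1, a cytosolic acyl-CoA thioesterase, was measured at 22.4, 22.5, 22, 28.2 and 21.3 CPM in HFD-Pio and 16, 11.3, 8.91, 8.79 and 7.3 CPM in Pio mice, with every HFD-Pio mouse the higher (1.15, SE 0.3, edgeR adjusted p = 0.0538). Acot1 was called in 5 of the 20 fits with 1 mouse left out (edgeR adjusted p down to 0.0152). Cyp4a10, a fatty acid omega-hydroxylase that shares sequence with its Cyp4a neighbours, averaged 514 ± 83.8 and 373 ± 89.2 CPM (SD, n = 5 each; 0.46, SE 0.25, edgeR adjusted p = 0.336). Pio mouse 842, at 531 CPM, lay among the HFD-Pio mice. Without the drug its log2 fold change was 1.34 (SE 0.26, edgeR adjusted p = 0.00714). The direct repeat spaced by 1 base (DR1) that PPAR and RXR bind was searched on both strands and was in 122 of 27025 promoters (0.451%), and in 0 of 24, 0 of 36 and 0 of 13 promoters held for the mitochondrial, peroxisomal and omega-hydroxylase lists.

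Secreted and regulatory genes of the fasting and fat response were mixed. Angptl4, an inhibitor of lipoprotein lipase and a PPAR target, was measured at 133, 127, 165, 172 and 159 CPM in HFD-Pio and 103, 59.6, 74.9, 82.4 and 74.2 CPM in Pio mice. HFD-Pio lay above Pio in every mouse, and 841 was the highest Pio mouse, with a log2 fold change of 0.94 (SE 0.18, edgeR adjusted p = 0.00955) called in all 20 fits. Ppargc1a, which encodes the coactivator PGC-1α of mitochondrial and gluconeogenic genes, went the other way, at 16.7, 16.7, 16.4, 17.1 and 12.1 CPM in HFD-Pio and 26.2, 52.9, 31.3, 28.5 and 38.2 CPM in Pio mice. Here every HFD-Pio mouse was the lower, with a log2 fold change of -1.16 (SE 0.2, edgeR adjusted p = 0.00363) called in all 20 fits, but not with all 40 mice (edgeR adjusted p = 0.0501).

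Gdf15, a circulating stress hormone, was measured at 37.5, 33.7, 24, 23.4 and 18.5 CPM in HFD-Pio and 18.6, 7.34, 4.01, 5.03 and 6.7 CPM in Pio mice. Pio mouse 841 overlapped the HFD-Pio mice, and the log2 fold change of 1.71 (SE 0.43, edgeR adjusted p = 0.0471) was called without mouse 829, 830, 832, 835 or 841 and lost without each of the other 15 (edgeR adjusted p up to 0.151). Fgf21, a fasting hormone made by liver, averaged 4.82 ± 0.909 and 2.24 ± 1.12 CPM (SD, n = 5 each), a log2 fold change of 1.07 (SE 0.45) that was not called (edgeR adjusted p = 0.209). Enho, which encodes the peptide adropin, was at 7.91 to 21.5 CPM in HFD-Pio and 1.31 to 7.05 CPM in Pio mice (1.61, SE 0.38, edgeR adjusted p = 0.0326), and the call was lost without mouse 838, 840, 843, 844 or 845 (edgeR adjusted p up to 0.103). Enho overlaps Dnaic1 on the other strand.

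**Figure D5:**
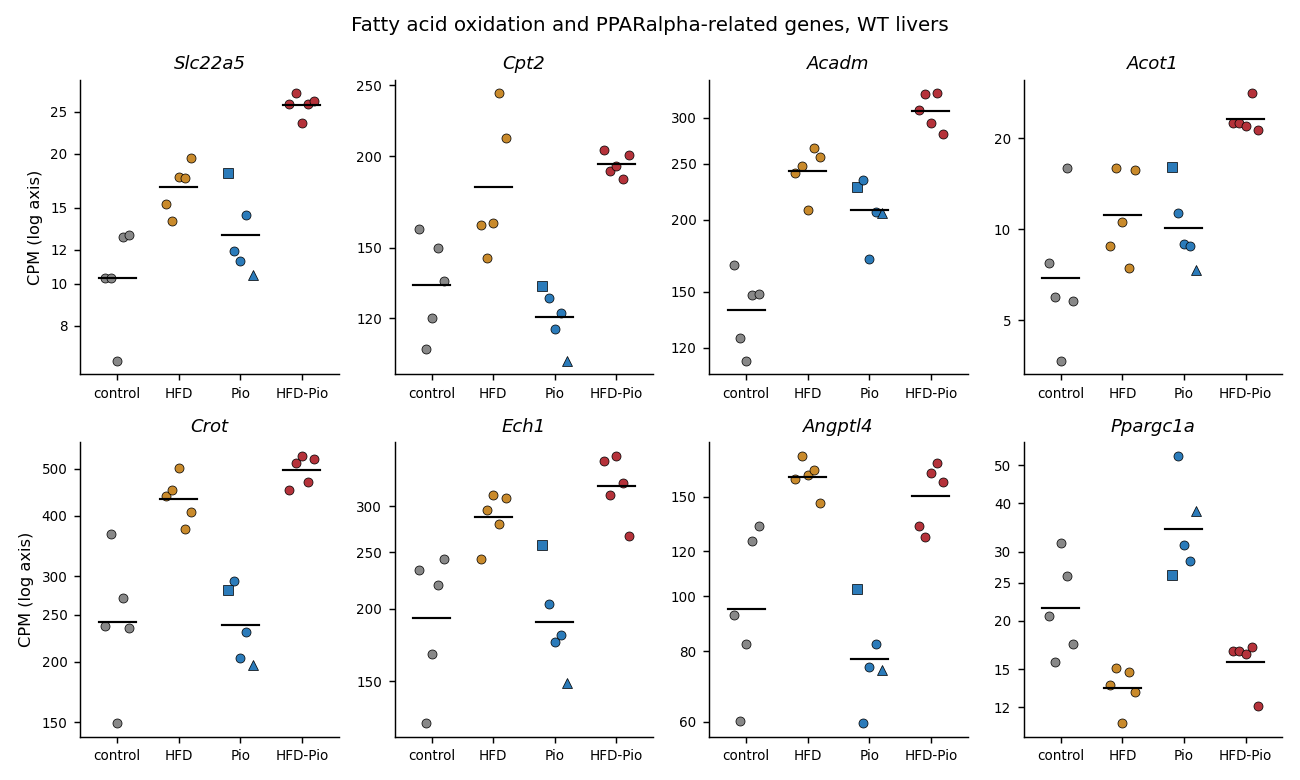
CPM (log axis) of Slc22a5, Cpt2, Acadm, Acot1, Crot, Ech1, Angptl4 and Ppargc1a in each mouse of the 4 WT groups. Points are mice, squares mark Pio mouse 841, triangles Pio mouse 845, and bars are geometric means. The HFD-Pio and Pio mice did not overlap in these 8 genes, with HFD-Pio the lower in Ppargc1a and the higher in the other 7.

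The PPARγ targets named in the study's text (Cd36, Cidec, Fabp4, Plin4, Mogat1, Cfd and Cav1) were not called. Cd36, a fatty acid transporter, was measured at 155, 180, 90.6, 149 and 104 CPM in HFD-Pio and 132, 120, 112, 130 and 192 CPM in Pio mice. The groups overlapped throughout (log2 fold change -0.01, SE 0.28, edgeR adjusted p = 0.983). Cidec, a droplet-fusion protein, averaged 91.1 ± 27.7 and 88.4 ± 22.4 CPM (SD, n = 5 each), with a log2 fold change of 0.04 (SE 0.42, edgeR adjusted p = 0.965). Fabp4, the adipocyte fatty acid binding protein, was at 22, 41.9, 9.36, 22.1 and 16.8 CPM in HFD-Pio and 96.6, 52.4, 29.6, 51.4 and 189 CPM in Pio mice. The groups overlapped at Pio mouse 843, and the log2 fold change of -1.89 (SE 0.54) was not called (edgeR adjusted p = 0.0785). Fabp4 was called in 1 of the 20 fits with 1 mouse left out (edgeR adjusted p = 0.0281), and Cd36, Cidec, Plin4, Mogat1, Cfd and Cav1 in 0. Plin4, Mogat1, Cfd and Cav1 had log2 fold changes of 0.42, 0.29, 0.45 and -0.94, and Pparg had -0.24 (SE 0.17, edgeR adjusted p = 0.446).

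Transcripts of the mitochondrial genome were lower in HFD-Pio mice by mean, but the spread of the Pio mice was wide. All 7 tested messengers had negative log2 fold changes, with a median of -1.16, and 1 was called, whereas the 79 tested nuclear genes of oxidative phosphorylation had a median of 0.08 and 0 calls. Over all genes 1.65% were called. The called gene, mt-Nd5, a subunit of complex I (mitochondrial genome, 11742 to 13565), was measured at 5910, 7750, 5300, 6100 and 7300 CPM in HFD-Pio and 5010, 16300, 13800, 12700 and 42100 CPM in Pio mice. Pio mouse 841 lay below all 5 HFD-Pio mice and 845 far above the others. The log2 fold change was -1.47 (SE 0.36, edgeR adjusted p = 0.0364), and without mouse 845 it was -0.89 (edgeR adjusted p = 0.153). The call was lost as well without any 1 of mice 836 to 840 and 842 to 844. mt-Nd5 overlaps mt-Nd6 on the other strand, and the part that RNA quality or depth plays in the mitochondrial share was not tested.

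In glucose metabolism 1 of 32 tested genes was called higher and 1 lower, beside 0.442% and 1.21% of all genes, with a median of -0.07. Ldha, lactate dehydrogenase A, averaged 701 ± 52.8 and 452 ± 69.7 CPM (SD, n = 5 each; 0.63, SE 0.14, edgeR adjusted p = 0.0274), and Aldoc, aldolase C, 12.6 ± 2.01 and 26 ± 4.75 CPM (SD, n = 5 each; -1.04, SE 0.26, edgeR adjusted p = 0.0385). Ldha lost its call without any 1 of mice 836 to 839 and 843 to 845, and Aldoc without any 1 of mice 826, 835, 836 to 840 and 842 to 845 (edgeR adjusted p up to 0.0944 and 0.119). Dlat, a subunit of pyruvate dehydrogenase, was the 1 called of 26 genes of pyruvate and the citrate cycle, beside 1.65% of all genes. It was measured at 32.1 to 55.8 CPM in HFD-Pio and at 92.1, 51.7, 81.3, 84.8 and 90 CPM in Pio mice, where mouse 842 overlapped the HFD-Pio group (-0.75, SE 0.18, edgeR adjusted p = 0.0325). Its call was lost without any 1 of mice 837 to 840 and 843 to 845 (edgeR adjusted p up to 0.101).

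In the bile acid list 1 of 27 rose, beside 0.442% of all genes. This was Csad, which makes hypotaurine for bile acid conjugation, at 268 to 368 CPM in HFD-Pio and 82.9 to 229 CPM in Pio mice (1.23, SE 0.28, edgeR adjusted p = 0.0256). Csad overlaps Zfp740 on the other strand. The groups did not overlap, and the call was lost without any 1 of mice 837 to 840 and 843 to 845 (edgeR adjusted p up to 0.0896). Among NRF2 targets and antioxidants 1 of 25 rose, Osgin1 (0.85, SE 0.2, edgeR adjusted p = 0.0335), and 2 fell, the pentose phosphate genes G6pdx and Pgd given above. Over all genes 0.442% were called higher and 1.21% lower. The call for Osgin1 was lost without mouse 836, 837, 838, 840, 843 or 845 (edgeR adjusted p up to 0.112). Nfil3, a repressor in the output of the circadian clock, was the 1 called of 19 clock genes, beside 1.65% of all genes. It was measured at 28.4 to 34.8 CPM in HFD-Pio and 11 to 22 CPM in Pio mice, without overlap (0.96, SE 0.16, edgeR adjusted p = 0.00339, all 20 fits).

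Of the drug-metabolising genes, Ugt1a5, a UDP-glucuronosyltransferase that shares its last exons with the other Ugt1a genes and so cannot be counted apart from them with certainty, fell from 110 ± 23.9 to 33.3 ± 15.5 CPM (SD, n = 5 each; -1.72, SE 0.34, edgeR adjusted p = 0.0121, all 20 fits, but 0.0506 without a filter on low counts). Aox3, an aldehyde oxidase of mouse liver, rose from 287 ± 68.9 to 607 ± 107 CPM (SD, n = 5 each; 1.08, SE 0.2, edgeR adjusted p = 0.00788, all 20 fits, but 0.0525 with all 40 mice). Retsat, retinol saturase, was at 460 to 645 CPM in HFD-Pio and 221 to 330 CPM in Pio mice (1.04, SE 0.23, edgeR adjusted p = 0.0264), a call lost without mouse 837, 838, 839, 843, 844 or 845 (edgeR adjusted p up to 0.0883). Pltp, the phospholipid transfer protein of plasma lipoproteins, fell from 148 ± 25.8 to 60.5 ± 22.7 CPM (SD, n = 5 each; -1.29, SE 0.26, edgeR adjusted p = 0.0122, all 20 fits) and was the 1 called of 21 apolipoprotein and assembly genes, beside 1.65% of all genes. Pltp overlaps Ctsa on the other strand, and it was not called without Pio mice 841 and 845 together (edgeR adjusted p = 0.0542). The acute phase gene Orm1 had a log2 fold change of -1.14 (SE 0.27, edgeR adjusted p = 0.0339) and overlapped between groups at Pio mouse 841. Its call was lost without any 1 of mice 837 to 840 and 843 to 845 (edgeR adjusted p up to 0.125).

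Several of the largest changes were in genes outside these lists. Chrna4, a nicotinic acetylcholine receptor subunit (chromosome 2, 181018380 to 181043546), fell most among the named genes. It was measured at 13.5, 12.1, 5.6, 21.1 and 9.51 CPM in HFD-Pio and 201, 223, 382, 292 and 319 CPM in Pio mice. The groups were separated by a wide gap. The log2 fold change was -4.52 (SE 0.62, edgeR adjusted p = 0.000878), which is 22.9-fold lower in HFD-Pio, and it was called in all 20 fits. Without the drug its log2 fold change was -4.33 (SE 0.62, edgeR adjusted p = 0.000503). Acpp, prostatic acid phosphatase, was at 3.45 to 7.88 CPM in HFD-Pio and 34.4 to 115 CPM in Pio mice (-3.61, SE 0.64, edgeR adjusted p = 0.00531), and Pdzk1ip1, a small membrane protein, at 1.58 to 5.32 and 9.91 to 24.5 CPM (-2.55, SE 0.42, edgeR adjusted p = 0.00306), both called in all 20 fits. H2-Q1, a class I histocompatibility gene with near-identical relatives, averaged 2.51 and 12.8 CPM (-2.32, SE 0.39, edgeR adjusted p = 0.00348, all 20 fits).

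Myc, the growth-related transcription factor, and Onecut1, a hepatocyte transcription factor, were called lower, with Pio mouse 841 near the HFD-Pio mice and the other Pio mice higher. Myc was measured at 2.15, 3.48, 2.77, 3.19 and 3.11 CPM in HFD-Pio and 3.87, 20.2, 29.4, 41 and 31.5 CPM in Pio mice. Mouse 841 was just above the HFD-Pio mice, and the log2 fold change of -3.09 (SE 0.72, edgeR adjusted p = 0.0308) lost its call without any 1 of mice 836 to 840 and 843 to 845 (edgeR adjusted p up to 0.0972). Onecut1 was measured at 9.81, 12.4, 46.1, 15.5 and 21.1 CPM in HFD-Pio and 14.9, 104, 225, 116 and 225 CPM in Pio mice. Mouse 841 lay within the HFD-Pio range, and the log2 fold change of -2.72 (SE 0.68, edgeR adjusted p = 0.0459) was called without mouse 828, 829, 832, 833, 835 or 841 and lost without each of the other 14 (edgeR adjusted p up to 0.138).

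Among the genes that rose, Pknox2, a homeobox gene, was measured at 10.9, 18.4, 17.9, 12.4 and 13.2 CPM in HFD-Pio and 5.15, 6.42, 4.78, 3.96 and 5.55 CPM in Pio mice. The groups did not overlap, and the log2 fold change was 1.49 (SE 0.23, edgeR adjusted p = 0.00245, all 20 fits). Without the drug it was 1.96 (SE 0.25, edgeR adjusted p = 0.000244). Setd4, of the SET-domain methyltransferase family, averaged 8.54 ± 1.22 and 3.94 ± 1.32 CPM (SD, n = 5 each; 1.1, SE 0.22, edgeR adjusted p = 0.0118, all 20 fits). Aatk and Pcp4l1 had log2 fold changes of 1.04 (SE 0.24, edgeR adjusted p = 0.0325) and 1.22 (SE 0.27, edgeR adjusted p = 0.0237) with the drug, and 1.98 and 2.42 without it. The call for Aatk was lost without any 1 of mice 836 to 839 and 842 to 845 (edgeR adjusted p up to 0.0897), and that for Pcp4l1 without mouse 838, 842, 843 or 844 (edgeR adjusted p up to 0.0773). Both Pknox2 and Setd4 overlap predicted genes on the other strand.

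Markers of other cell types were compared because whole liver was sequenced, and in bulk tissue fewer cells of a type and less RNA per cell cannot be told apart. The summed level of 10 lymphocyte markers was 15.6 to 26.5 CPM in HFD-Pio and 34.6 to 97.4 CPM in Pio mice, without overlap and highest in mouse 845. Of its 3 tested genes 1 fell, Ighm, the immunoglobulin mu chain, from 60.4 to 15.4 CPM (-1.97, SE 0.43, edgeR adjusted p = 0.0217), a call lost without mouse 838, 839, 840, 844 or 845 (edgeR adjusted p up to 0.0756). Over all genes 1.21% were called lower. Ighm is 1 of the 10 summed markers and, by these means, held most of the sum in both groups. Its fall and that of the sum are therefore not separate observations, and the sum says little about the other markers. The summed macrophage markers were 494 to 797 and 517 to 954 CPM, and the stellate cell markers 474 to 735 and 518 to 958 CPM, with 0 of 22 and 0 of 19 tested genes called in either direction, beside 1.65% of all genes. Pancreatic acinar markers summed to 7.73 to 20.3 CPM in HFD-Pio and 1.69 to 7.61 CPM in Pio mice, also without overlap, with 1 of 10 past the filter and Amy2a5 at 0 counts in all 10 libraries. The part of these cells in the gene changes was not tested.

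Lists with 0 genes called in either direction included the unfolded protein response (43 tested, median 0.17), interferon and antigen presentation (37, -0.07), heme synthesis (10, 0.19), amino acid catabolism (33, 0.1), p53 targets and cell cycle (27, -0.03), cytosolic ribosomal proteins (71, 0.15), the mitochondrial ribosome (74, 0.11) and the proteasome (37, 0.06). Over all genes 1.65% were called, a share at which lists of this size would hold few calls or 0.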

How the data were processed

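Gene counts of 20 WT and 20 KO livers were read from the separate tables deposited for the genotypes. The authors selected poly-A RNA, aligned reads to GRCm38 with STAR 2.0.4b and, with featureCounts 1.4.5 of Subread, counted for each gene the unambiguous reads that aligned once, and the deposited counts are not normalised. A column of GC content per gene, in percent, is part of the deposited tables, and how it was made is not given in the sources used here. Columns were matched to mice by number and label, and 0 were left over. Repeated lines (574 in the WT table, 598 in the KO table) were identical and were kept once, and 355 rRNA genes were removed. After a filter (1 CPM or more in 5 or more mice) 12447 genes remained.

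Counts were analysed with edgeR 4.0.16 in R 4.3.3 (TMM, robust quasi-likelihood fit, Benjamini-Hochberg adjustment) over the 20 WT mice in 4 groups. Standard errors were taken from the log2 fold change and the F statistic. The KO comparison was fitted on the 20 KO mice, and the genotype difference on all 40. DESeq2 1.42.0, limma 3.58.1 with quality weights (the type of model the study used), other filters, size factors, trends on GC content and exon length, and omission of each mouse were alternatives. Exact permutation tests compared single values, two-sided. The scripts were tested on simulated data. No set test was run on a gene list. Log2 CPM for principal components used a prior count of 2.

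The genes and lists were chosen with earlier results of these data known. Genes were named by a rule: anchor members of each list, the PPARγ targets that the study's text names, Pparg, the 12 called genes with the largest change in each direction (mean CPM of the 10 mice 5 or more), up to 3 called members of each list in each direction, and the called genes of the difference tests. Other list members and Ighm were named after their values were seen. Some genes are not reported here, and binding data were not analysed here.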

Additional observations from a re-analysis of the deposited data

Results flagged for a closer look

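In 162 groups of 5 mice (log2 CPM of the named genes, and library measures, in HFD-Pio and Pio mice), 14 held 1 mouse that stood apart. The gap of that mouse to the nearest other mouse, as a share of the range of the group, passed the critical value of 0.71. For genes the gap was taken on log2 CPM, and the values below are CPM. Chance alone flags about 1 in 20 such groups. Among the Pio mice, 842 was low for Pnpla3, at 48.3 CPM against 124 to 180 CPM in the other 4, low for Dlat, at 51.7 CPM against 81.3 to 92.1 CPM, low for Acacb, at 453 CPM against 725 to 779 CPM, low for Me1, at 170 CPM against 404 to 512 CPM, and high for Cyp4a10, at 531 CPM against 313 to 349 CPM. Pio mouse 841 was low for Onecut1, at 14.9 CPM against 104 to 225 CPM.

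Among the HFD-Pio mice, 840 was low for Hadha, at 423 CPM against 474 to 497 CPM, for Hao2, at 0.457 CPM against 1.56 to 1.99 CPM, and for Ppargc1a, at 12.1 CPM against 16.4 to 17.1 CPM, and it was high for Osgin1, at 343 CPM against 199 to 228 CPM. HFD-Pio mouse 839 was high for Acot1, at 28.2 CPM against 21.3 to 22.5 CPM, and for Fdps, at 73.4 CPM against 42.8 to 48.9 CPM, and HFD-Pio mouse 838 for Pcp4l1, at 14.6 CPM against 6.53 to 7.68 CPM. The TMM factor of HFD-Pio mouse 836 was 0.973 against 1.03 to 1.04 in the other 4.

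A difference of effects was called in the following cases. The effect of the high-fat diet on Cyp7a1 differed between mice with and without the drug, by -3.08 on the log2 scale. The effect under the drug differed between KO and WT mice by 2.33 for Fdft1 and by 3.08 for Cyp7a1, with the KO effect the higher in both.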

How the results depend on the processing

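Of the 78 genes given for HFD-Pio against Pio, 57 were called. Of the 21 not called, limma called 11 in the same direction, the fit of the 10 mice alone 6 and DESeq2 5. With the size factors of DESeq2 in edgeR all 78 kept their direction and side of the threshold, without a filter on low counts 18 calls were lost, and in the fit of all 40 mice 26 were lost, in each case the genes named with the count of calls above. The calls in HFD-Pio against Pio numbered 560 with DESeq2, 2627 with limma, 471 in a fit of the 10 mice alone and 130 (57 higher, 73 lower) without Pio mice 841 and 845 together, an alternative chosen after seeing the data. They ran from 77 to 1025 with 1 mouse left out. For HFD against control the calls numbered 229 without a filter, 617 with DESeq2, 170 with all 40 mice and 158 to 454 with 1 mouse left out. For the difference of the diet effects with and without the drug they numbered 2 without a filter, 2 at a mean of at least 5 CPM, 135 with DESeq2, 840 with limma, 3 with the GC trend removed, 10 with all 40 mice, 6 without mice 841 and 845, and 1 to 115 with 1 mouse left out. In KO mice they numbered 642 (55 higher, 587 lower) with all 40 mice, 67 with DESeq2, 143 with limma and 0 to 18 with 1 mouse left out. For the KO and WT difference they numbered 1 without a filter, 108 with DESeq2, 975 with limma and 1 to 391 with 1 mouse left out. The cause of these shifts was not tested.

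Signs turned in genes that were not called. Cd36 was at 0 without a filter, 0.11 with limma, 0.09 with the GC trend removed, 0.01 in the fit of 10 mice and 0.17 without mice 841 and 845, and -0.12 to 0.13 with 1 mouse left out. Cidec was at -0.03 with the length trend removed and -0.08 to 0.21 with 1 mouse left out, and Srebf1 at -0.02 without mice 841 and 845 and -0.11 to 0.14 with 1 mouse left out. In HFD against control, Mvd ran from -0.67 to 0.07 with 1 mouse left out. Leaving out the mitochondrially encoded genes, also chosen after seeing the data, gave 206 calls. No paired analysis was possible because each mouse number belongs to 1 group. At 15789401 to 49860981 counts per library, genes near 1 CPM, such as Hao2, rest on few counts in the smaller libraries.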

Other observations

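Across genes, which are not independent replicates, the log2 fold change of HFD-Pio against Pio had a Spearman correlation of 0.09 with GC content (12447 genes) and -0.14 with log2 exon length (12427 genes). The median exon length was 3331 bases in called genes that rose, 3965.5 bases in those that fell and 4390 bases over all genes.

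Of the 13 messengers of the mitochondrial genome, 7 passed the filter, and the median given above covers those 7. Only unambiguous reads that aligned once were counted, and what this leaves out of the mitochondrial share was not tested. Smpd3, neutral sphingomyelinase 2, averaged 2.49 ± 0.612 CPM in HFD-Pio and 11.4 ± 2.34 CPM in Pio mice (SD, n = 5 each; log2 fold change -2.18, SE 0.46, edgeR adjusted p = 0.0187), and its call was lost without HFD-Pio mouse 838, 839 or 840 (edgeR adjusted p up to 0.0623). Smpd3 overlaps Prmt7 on the other strand. Igfals, the acid-labile subunit that carries IGF-1 in plasma, was the 1 called of 25 tested genes of the growth hormone and urinary protein list, beside 1.65% of all genes. It was measured at 91.7 to 125 CPM in HFD-Pio and 29.8 to 74.1 CPM in Pio mice (0.95, SE 0.23, edgeR adjusted p = 0.0385). The groups did not overlap, and its call was lost without any 1 of mice 836 to 840 and 842 to 845 (edgeR adjusted p up to 0.107). Other called genes given above that overlap an annotated gene on the other strand were Aatk, Acaca, Acacb, Aox3, Elovl6, Gpam, Lss, Mvd, Ppargc1a, Retsat and Ugt1a5.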
